A study of Gossypium bickii with 18 samples.

Results

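Cotyledons of Gossypium bickii, an Australian wild diploid cotton, were compared at 36 h and 24 h after imbibition, the water uptake that starts germination. All were kept under light. Each time had 3 libraries, which the labels call biological replicates with no word on the plants or seed lots behind them. The p-values therefore measure only the spread between these samples. A gene was included when it reached 1 FPKM (fragments scaled to gene length and to the mapped fragments of the library) in at least 3 of the 6 libraries. This rule kept 23144 of the 43790 gene IDs in the table, or 52.9%, and these are called the detected genes below. At the edge of the rule, Gbi06G2436 was kept with a value of 1.0004 FPKM in the library that decided it, and Gbi08G0785 was left out with 0.9997 FPKM. The same table holds 3 libraries at each of 0 h (no light condition in the labels), 12 h and 48 h under light. A separate table sets 24 h under light against 24 h in the dark. Only 1 tissue, the cotyledon, was sampled, and no genotype or treatment other than time and light is given.

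The cotyledons of cotton store oil and protein in the dry seed. After imbibition these reserves are broken down to feed the seedling, and the cotyledons expand, turn green in light and begin photosynthesis. G. bickii is also known for pigment glands, small cavities filled with gossypol and related terpenoids, which are missing from its dormant seed and form in the cotyledons during germination. The files give gene IDs without gene names, so no role is given for any ID here. The labelled tissue could not be checked against marker genes for the same reason. In a bulk sample, fewer cells of a type and less RNA per cell cannot be told apart.

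The 36 h libraries were less alike than the 24 h libraries. The median SD of log2(FPKM + 1) over the detected genes was 0.232 at 36 h and 0.189 at 24 h (n = 3 each). Replicate 3 at 36 h stood apart, with a correlation across genes of 0.913 to 0.925 with the other 36 h libraries, against 0.974 between replicates 1 and 2. The 24 h libraries correlated at 0.951 to 0.971. In 36 h replicate 3, 150 detected genes exceeded both other libraries of its time by 2 log2 units or more and 103 were as far below, whereas the other 5 libraries had at most 31 above and 42 below. Genes at 1 FPKM or more numbered 22348 ± 209 of the detected genes at 36 h and 22031 ± 50.4 at 24 h (SD, n = 3 each). The 100 highest detected genes held 15.4% ± 1.22 of summed FPKM at 36 h and 17.9% ± 0.518 at 24 h (SD, n = 3 each). In a two-sided exact permutation test each difference reached p = 0.1 (adjusted 0.1 over 2 tests), and 3 libraries against 3 can go no lower.

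Most detected genes changed little between 24 h and 36 h, and most of those called in the fit of all times rose. With limma, a gene was called when its p, adjusted by Benjamini-Hochberg over all 26086 genes tested in the 15 libraries, was under 0.05 and its log2 difference (36 h minus 24 h, on log2(FPKM + 1)) was at least 1 in size. By this rule 795 detected genes were called, or 3.44%, beside 3.16% of all genes tested. Of these, 645 rose (2.58% of all genes tested were called higher) and 150 fell (0.579% called lower). A further 29 genes outside the inclusion rule were called, 28 higher and 1 lower. The log2 difference was under 1 in size for 95.3% of detected genes, with a median of -0.00052 and the 5th and 95th percentiles at -0.58 and 0.84. Among the genes that rose, the median log2 difference was 1.39 and the highest 4.35, and 130 reached 2. Among those that fell, the median size was 1.24 and the highest 2.98, and 9 reached 2. Values did not overlap between the times in 618 of the 645 genes that rose and 146 of the 150 that fell. These genes were called by a test on the same values, so nothing is read from these numbers. Over all detected genes, 3177 (13.7%) had all 36 h values above all 24 h values and 2841 (12.3%) had them below, beside 13.9% and 11.4% of all genes tested. After quantile normalization these counts were 2699 and 3527, so which direction was the more common in this measure depends on scaling.

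**Figure D1:**
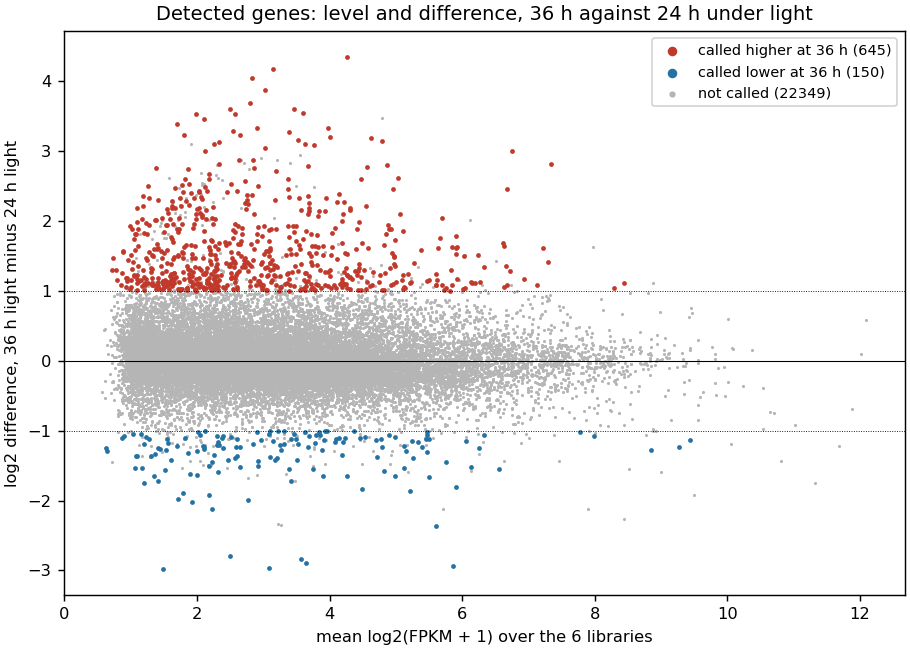
Each point is 1 of the 23144 detected genes, with its mean log2(FPKM + 1) over the 6 libraries on the x axis and its log2 difference, 36 h light minus 24 h light, on the y axis. The 645 genes called higher spread up to 4.35 and the 150 called lower down to -2.98, while 95.3% of genes lie between the dotted lines at -1 and 1.

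The count of calls differed with the libraries and weights used in the fit. The 5 times were fitted together and shared their estimate of the spread. In a fit of the 6 libraries of 24 h and 36 h alone, 0 detected genes were called, with 4483 at an unadjusted p under 0.05 and a lowest adjusted p of 0.052. When 36 h replicate 3 was left out of that same fit, 723 were called, 469 higher and 254 lower, and 422 of these were among the 795. When all 6 libraries were kept and weighted by their own spread (limma's array weights), 1126 were called, and 640 of these were among the 795. In the fit of all times, leaving out 36 h replicate 3 raised the count to 1305, whereas leaving out 36 h replicate 2 lowered it to 447. It was 517 when 24 h replicate 3 was dropped. Without 36 h replicate 3, 722 of the 795 genes were still called. The fits of 24 h and 36 h alone with weights or without replicate 3 were chosen after the data were seen.

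**Figure D2:**
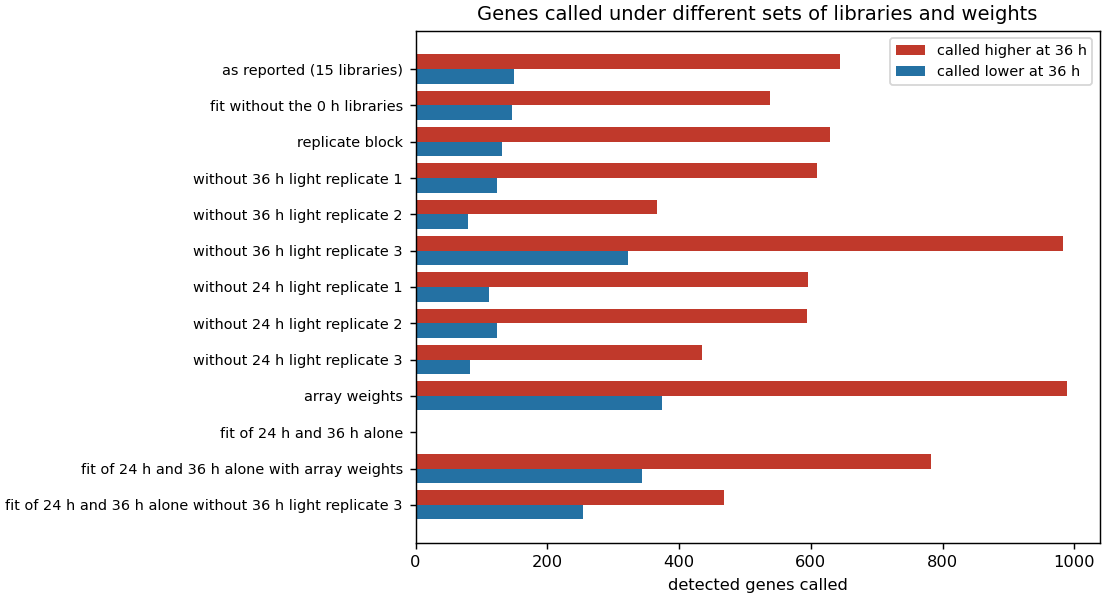
Bars give the number of detected genes called higher (red) and lower (blue) at 36 h against 24 h, with the set of libraries or weights in each row. The count is 645 and 150 with all 15 libraries, 0 in the fit of 24 h and 36 h alone, and 469 and 254 in that fit without 36 h replicate 3.

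Genes that rose between 24 h and 36 h were low early and highest at 48 h. Their median level, taken over the 645 genes from each gene's mean, began at 0.0737 FPKM (0 h), passed 0.464 FPKM (12 h), 2.56 FPKM (24 h) and 10.8 FPKM (36 h), and ended at 34.3 FPKM (48 h). Their share of summed FPKM was 0.301% ± 0.0140 for 0 h, 0.222% ± 0.00985 for 12 h, 0.935% ± 0.112 for 24 h, 3.13% ± 0.672 for 36 h and 18.3% ± 2.63 for 48 h (SD, n = 3). Single genes weigh heavily in such a share: Gbi11G2017, Gbi07G2137 and Gbi11G2016 averaged 10251, 8902 and 6871 FPKM at 48 h. The highest mean was that of 48 h for 469 of the 645 genes and that of 36 h for 166, with 8 genes peaking at 0 h and 2 at 12 h. The comparison of 48 h with 12 h shares no library with that of 36 h with 24 h. All comparisons come from the same fit, however, and share each gene's estimate of the spread, so their calls are not independent. At 48 h against 12 h, 563 of the 645 (87.3%) were called higher, 3 lower and 79 neither. Over all genes tested, 26.6% were called higher and 43.0% in either direction. These 563 were 8.11% of the 6946 genes called higher at 48 h. The comparison of 12 h with 0 h shares no library either. There 100 of the 645 (15.5%) were called higher and 44 (6.82%) lower, beside 30.0% and 11.6% of all genes tested (41.6% in either direction).

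Genes that fell took another course. Their median level climbed to 20.4 FPKM by 12 h, after 4.05 FPKM at 0 h. It then declined through 13.7 FPKM (24 h) and 5.13 FPKM (36 h) to 1.98 FPKM (48 h). Their share of summed FPKM instead fell at each time from 0 h. It was 15.8% ± 0.664 (0 h), 2.71% ± 0.0974 (12 h), 1.29% ± 0.0438 (24 h), 0.534% ± 0.123 (36 h) and 0.242% ± 0.0124 (48 h; SD, n = 3). Single genes weigh heavily here too: Gbi10G0039, Gbi09G1925 and Gbi03G0425 averaged 30129.8, 14353 and 11867 FPKM at 0 h. Of the 150, 59 peaked at 12 h and 50 at 24 h, while 38 were highest at 0 h and 3 were highest at 48 h. At 48 h against 12 h, 117 of them (78.0%) were called lower, 9 higher and 24 neither, where 16.4% of all genes tested were called lower. These 117 were 2.73% of the 4279 genes called lower at 48 h. At 12 h against 0 h, 84 (56.0%) were called higher and 30 (20.0%) lower, beside 30.0% and 11.6% of all genes tested.

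**Figure D3:**
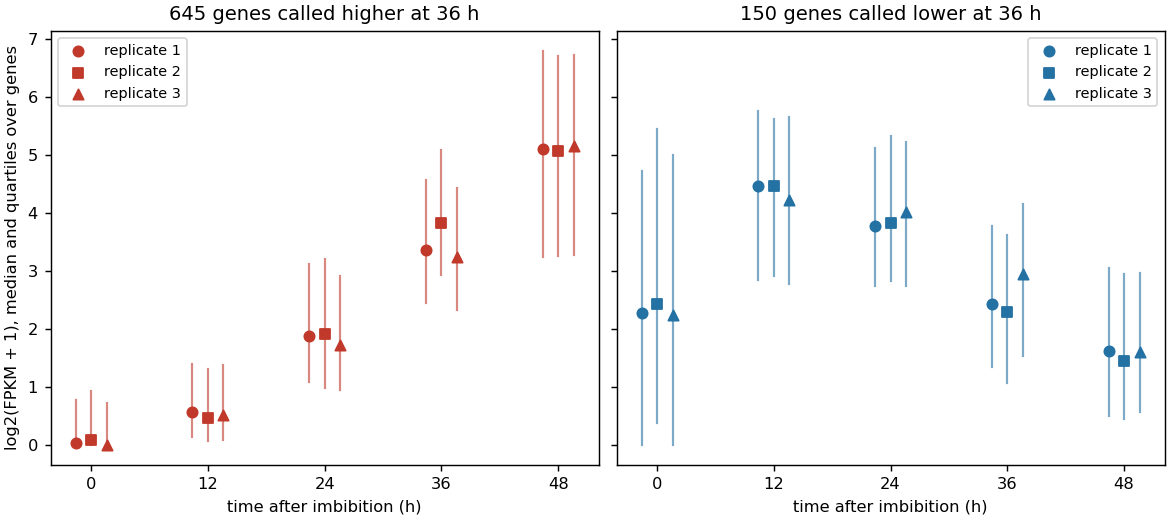
Markers give the median and lines the quartiles of log2(FPKM + 1) over the 645 genes called higher (left) and the 150 called lower (right) in each of the 15 libraries, by time after imbibition in hours. The medians of the genes called higher climb at each time after 12 h. Those of the genes called lower peak at 12 h and decline after it. The difference between 24 h and 36 h is fixed by how the genes were chosen.

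The 36 h libraries lay further along the way from 12 h to 48 h than the 24 h libraries, and differed more among themselves. For each of the 11225 genes called between 48 h and 12 h, a library's log2 value was placed on a scale with the 12 h mean at 0 and the 48 h mean at 1, and the median was taken over genes. The position was 0.443, 0.526 and 0.344 in 36 h replicates 1, 2 and 3, against 0.289, 0.232 and 0.261 in 24 h replicates 1, 2 and 3. The groups did not overlap, and 36 h replicate 3 lay nearest to the 24 h libraries. The order of the 36 h libraries was the same over genes that rose from 12 h to 48 h (0.494, 0.567 and 0.378) and over those that fell (0.337, 0.419 and 0.278). Among the 645 genes that rose, the same order stood out in those highest at 48 h but not in those highest at 36 h. Of the 645, 563 were called higher at 48 h against 12 h and so are among the genes behind the position. Of the 469 with their highest mean at 48 h, 405 had their highest 36 h value in replicate 2 and 301 their lowest in replicate 3. Among the 166 with their highest mean at 36 h, replicate 3 held the highest value for 70, replicate 2 for 54 and replicate 1 for 42. Among the 150 genes that fell, 96 had their highest 36 h value in replicate 3 and 89 their lowest in replicate 2. This position was chosen as a measure after the data were seen.

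**Figure D4:**
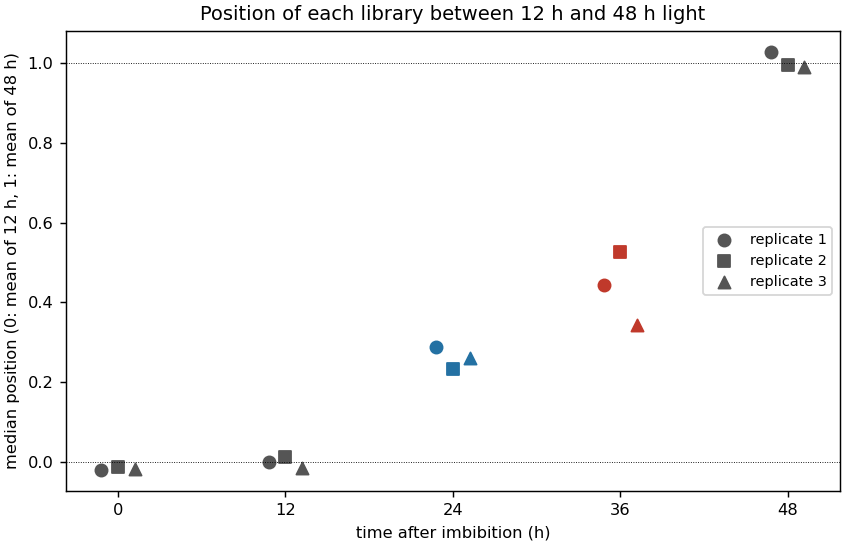
Each marker is 1 library, with time after imbibition in hours on the x axis and, on the y axis, its median position over 11225 genes between the mean of 12 h (0) and the mean of 48 h (1). The 36 h libraries sit between 0.344 and 0.526, above the 24 h libraries at 0.232 to 0.289.

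Among the 10 genes with the largest rises (values not overlapping and a 36 h mean of at least 10 FPKM), 6 went on rising to 48 h. Gbi01G2273 stood at 29.6, 52.7 and 31.0 FPKM at 36 h, against 1.83, 0.271 and 1.5 FPKM at 24 h (log2 difference 4.17, SE 0.31, adjusted p = 1.22e-05). It was listed at 0 in every 0 h and 12 h library and at 175, 118 and 83.0 FPKM at 48 h. Its 36 h libraries lay close together, and the 2 times did not overlap. Its 0 h and 12 h libraries, all at 0, added no spread to the estimate behind its p-value. Gbi11G2016 stood at 13.8, 103 and 14.8 FPKM at 36 h, against 0.529, 1.54 and 0.354 FPKM at 24 h (log2 difference 4.06, SE 0.55, adjusted p = 0.000856). Replicate 2 was the high library at 36 h, and at 48 h the gene reached 6871 ± 2092 FPKM (SD, n = 3). Gbi05G1787 was also highest in replicate 2, at 14.9, 38.1 and 11.3 FPKM at 36 h, against 0.488, 0.976 and 0.450 FPKM at 24 h (log2 difference 3.60, SE 0.31, adjusted p = 5.21e-05), and stood at 1418 ± 279 FPKM at 48 h. Gbi13G1003 was so as well, at 8.15, 28.3 and 8.02 FPKM at 36 h, against 0.0613, 0.237 and 0.179 FPKM at 24 h (log2 difference 3.54, SE 0.34, adjusted p = 0.000119), and stood at 536 ± 137 FPKM at 48 h. All 3 of these genes were thus under 2 FPKM in every 24 h library and at 454 FPKM or more in every 48 h library, with 36 h between. Gbi03G0123 stood at 28.3, 94.7 and 4.55 FPKM at 36 h, against 1.34, 1.09 and 0.474 FPKM at 24 h (log2 difference 3.69, SE 0.71, adjusted p = 0.0072). Gbi10G1477 stood at 70.0, 62.8 and 11.5 FPKM at 36 h, against 1.68, 3.16 and 1.81 FPKM at 24 h (log2 difference 3.61, SE 0.46, adjusted p = 0.000656). In both of these 36 h replicate 3 was the lowest of its time. Gbi03G0123 rose to 1282 ± 476 FPKM at 48 h and Gbi10G1477 to 116 ± 12.4 FPKM. All 6 genes kept their calls when any 1 of the 6 libraries was left out of the fit of all times, with adjusted p at most 0.0366. In the fit of 24 h and 36 h alone all 6 missed, at adjusted p of 0.0541 to 0.132.

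**Figure D5:**
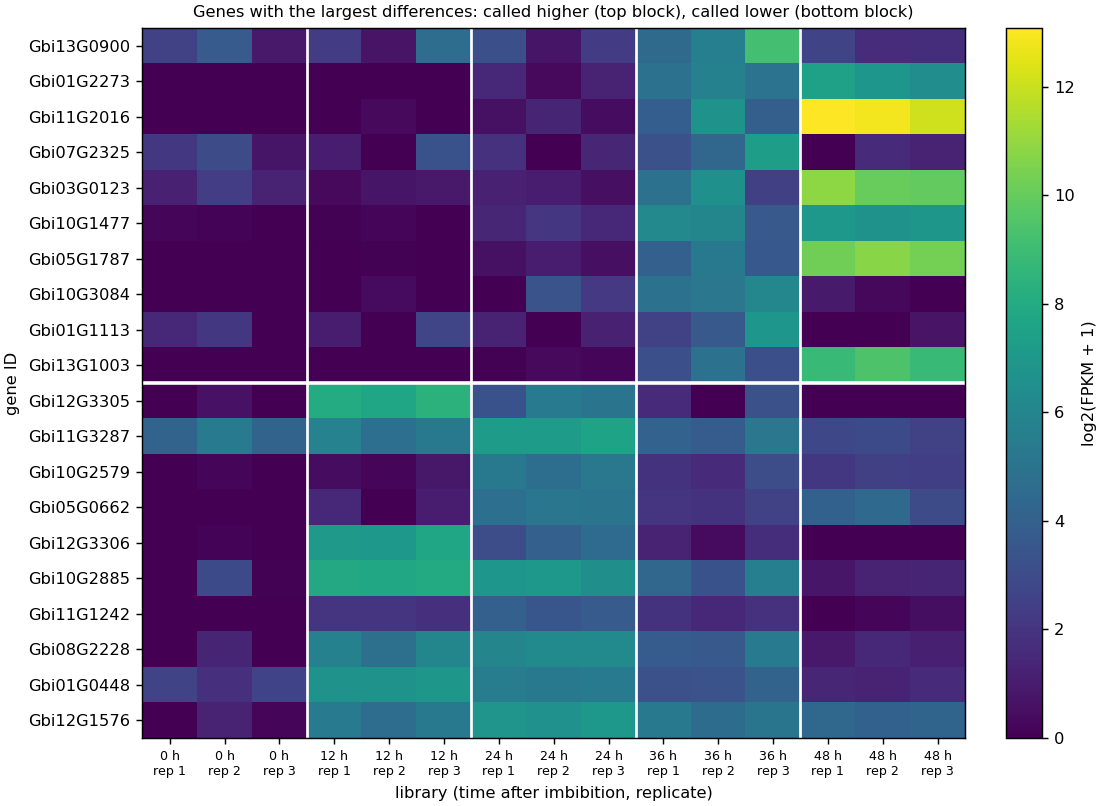
Colour gives log2(FPKM + 1) in each of the 15 libraries (x axis, by time and replicate) for the 10 genes with the largest rises (top block) and the 10 with the largest falls (bottom block) at 36 h against 24 h. Gbi11G2016, Gbi03G0123, Gbi05G1787 and Gbi13G1003 brighten further at 48 h, while Gbi13G0900, Gbi07G2325 and Gbi01G1113 are brightest in 36 h replicate 3.

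The other 4 of the 10 were highest at 36 h and low again at 48 h. Gbi10G3084 stood at 28.6, 35.6 and 65.1 FPKM at 36 h, against 0, 9.09 and 3.47 FPKM at 24 h (log2 difference 3.54, SE 0.59, adjusted p = 0.00297). It was under 1 FPKM in every library at 0 h, 12 h and 48 h, so it reached 1 FPKM only at 24 h and 36 h. Its call held without any 1 of the 6 libraries (adjusted p at most 0.0131) but missed with a pseudocount of 0.1 (adjusted p = 0.0571), and its adjusted p lay between 0.000241 and 0.114 over all alternatives. Like Gbi10G3084, the other 3 were highest in 36 h replicate 3, but by a wider margin. Gbi13G0900 stood at 22.0, 48.9 and 566 FPKM at 36 h, against 8.15, 0.688 and 3.94 FPKM at 24 h (log2 difference 4.35, SE 1.14, adjusted p = 0.0362). Gbi07G2325 stood at 8.61, 18.6 and 162 FPKM at 36 h, against 2.65, 0 and 1.66 FPKM at 24 h (log2 difference 3.87, SE 1.00, adjusted p = 0.0327). Gbi01G1113 stood at 4.88, 11.4 and 115 FPKM at 36 h, against 1.34, 0 and 1.29 FPKM at 24 h (log2 difference 3.54, SE 0.92, adjusted p = 0.0338). In each of them replicate 3 was far above the other 36 h libraries, although all 36 h values lay above all 24 h values. Without 36 h replicate 3 their log2 differences were 3.00, 2.68 and 2.29 in the order given, and none passed (adjusted p = 0.0778, 0.0681 and 0.0581). Dropping 36 h replicate 2 also ended their calls (0.0790, 0.0738 and 0.0709). So did dropping 24 h replicate 2 (0.129, 0.117 and 0.115) and dropping 24 h replicate 3 (0.0963, 0.0837 and 0.0811). Without 24 h replicate 1 Gbi07G2325 and Gbi01G1113 did so too (0.0509 and 0.0648). At 12 h the same 3 genes were highest in replicate 3, at 24.7, 8.80 and 5.57 FPKM in the order given.

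Among all 166 genes that rose and were highest at 36 h, the median level was 0.0375 FPKM (0 h), 0.639 FPKM (12 h), 2.12 FPKM (24 h), 11.9 FPKM (36 h) and 3.23 FPKM (48 h). Of them, 95 had all 36 h values above all 48 h values, and 30 were under 1 FPKM in all 48 h libraries. In 27 of them replicate 3 was at least 4 times as high as both other 36 h libraries. Where the highest mean was at 48 h instead, the median was 2.76 FPKM (24 h), 10.7 FPKM (36 h) and 54.9 FPKM (48 h). Of these 469 genes, 408 had all 48 h values above all 36 h values.

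No detected gene switched off between the 2 times, and 4 switched on, by limits set after the data were seen (under 1 FPKM in every library of 1 time and at least 5 FPKM in every library of the other). Of the detected genes, 236 were under 1 FPKM in every 24 h library and 72 in every 36 h library. Such genes pass the inclusion rule only through the other time, so no direction is read from these counts. The 4 that switched on were Gbi05G1787 and Gbi13G1003, given above, with Gbi11G2017 and Gbi06G0435. Gbi11G2017 stood at 6.82, 40.1 and 8.20 FPKM at 36 h, against 0, 0.692 and 0.293 FPKM at 24 h (log2 difference 3.47, SE 0.46, adjusted p = 0.000798). At 48 h it had the highest level of the 645 genes, 10251 ± 2688 FPKM (SD, n = 3). Gbi06G0435 stood at 8.51, 10.8 and 15.5 FPKM at 36 h, against 0.524, 0.592 and 0.472 FPKM at 24 h (log2 difference 3.00, SE 0.80, adjusted p = 0.0376). Its libraries agreed at both of these times but not at 48 h, where they stood at 1.49, 2.42 and 58.9 FPKM.

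The most abundant genes that rose had log2 differences between 1.04 and 3.01. Over the 6 libraries the 5 highest were Gbi04G0942, Gbi08G0124, Gbi07G2137, Gbi03G0497 and Gbi05G2233. Gbi07G2137 stood at 329, 859.5 and 279 FPKM at 36 h, against 41.7, 112 and 46.5 FPKM at 24 h (log2 difference 2.81, SE 0.43, adjusted p = 0.00168). Replicate 2 was the highest library at both times. It stood at 0.585 ± 0.168 FPKM at 0 h and 8902 ± 1459.8 FPKM at 48 h (SD, n = 3). Gbi03G0497 stood at 158, 396 and 453 FPKM at 36 h, against 31.4, 38.9 and 41.4 FPKM at 24 h (log2 difference 3.01, SE 0.36, adjusted p = 0.000424). Unlike most genes that rose, it was lowest in replicate 1 at 36 h. Both kept their calls without any 1 of the 6 libraries. Gbi08G0124 stood at 366, 541 and 458 FPKM at 36 h, against 216, 264 and 182 FPKM at 24 h (log2 difference 1.04, SE 0.20, adjusted p = 0.0077). The groups did not overlap, but the log2 difference slipped under 1 without 36 h replicate 2 (0.90, adjusted p = 0.0465) or 24 h replicate 3 (0.91, adjusted p = 0.0482). Gbi04G0942 averaged 536 ± 185 FPKM at 36 h and 239.8 ± 50.9 FPKM at 24 h (SD, n = 3 each; log2 difference 1.11, SE 0.30, adjusted p = 0.0398). Gbi05G2233 averaged 273 ± 121 FPKM at 36 h and 97.8 ± 31.3 FPKM at 24 h (SD, n = 3 each; log2 difference 1.42, SE 0.37, adjusted p = 0.0333). For both, the lowest 36 h value (replicate 3, 324 and 156 FPKM) was only a little above the highest 24 h value (292 and 129 FPKM). Gbi04G0942 lost its call without 36 h replicate 1 (adjusted p = 0.135), 36 h replicate 2 (0.176) or any 24 h replicate (0.051, 0.0972 and 0.166 without replicates 1, 2 and 3). Gbi05G2233 kept its call without 36 h replicate 3 or 24 h replicate 2 and missed without the others (0.0882 and 0.161 for 36 h replicates 1 and 2, 0.0754 and 0.15 for 24 h replicates 1 and 3).

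The genes that fell divided by the time of their highest mean into genes of 0 h, of 12 h and of 24 h. The 38 with their highest mean at 0 h had a median level of 219.7 FPKM then, followed by 21.5 FPKM (12 h), 7.84 FPKM (24 h), 2.77 FPKM (36 h) and 0.642 FPKM (48 h). The 3 most abundant of these at 0 h were Gbi10G0039, Gbi09G1925 and Gbi03G0425. Gbi10G0039 stood at 59.0, 47.0 and 56.3 FPKM at 36 h, against 199, 146 and 141 FPKM at 24 h (log2 difference -1.55, SE 0.40, adjusted p = 0.0325), and had averaged 30129.8 ± 5955 FPKM at 0 h (SD, n = 3). Gbi09G1925 stood at 11.7, 8.63 and 11.3 FPKM at 36 h, against 25.1, 33.4 and 26.4 FPKM at 24 h (log2 difference -1.34, SE 0.22, adjusted p = 0.00244), and had averaged 14353 ± 1795 FPKM at 0 h. Gbi03G0425 stood at 6.66, 5.39 and 8.17 FPKM at 36 h, against 17.1, 17.1 and 15.2 FPKM at 24 h (log2 difference -1.19, SE 0.29, adjusted p = 0.0269), and had averaged 11867 ± 2956 FPKM at 0 h. In all 3 the 36 h libraries lay close together and well under those of 24 h, at levels already far under those of 0 h. These 3 were picked for their level at 0 h after the data were seen.

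The 59 genes that fell and were highest at 12 h had a median of 33.2 FPKM (12 h), 20.1 FPKM (24 h), 8.43 FPKM (36 h) and 2.58 FPKM (48 h). Of the 10 genes with the largest falls, 4 belonged here. Gbi12G3305 stood at 2.02, 0 and 8.38 FPKM at 36 h, against 8.95, 40.1 and 32.1 FPKM at 24 h (log2 difference -2.97, SE 0.63, adjusted p = 0.0126), after 269.9 ± 62.2 FPKM at 12 h. The lowest 24 h value was barely above the highest 36 h value, and the call was lost when 36 h replicate 2 (adjusted p = 0.0517), 24 h replicate 2 (0.0533) or 24 h replicate 3 (0.0624) was dropped. Gbi12G3306, the next ID in number, stood at 1.39, 0.290 and 2.25 FPKM at 36 h, against 7.59, 15.3 and 22.8 FPKM at 24 h (log2 difference -2.79, SE 0.35, adjusted p = 0.000596), after 156 ± 46.2 FPKM at 12 h. Both IDs were listed at 0 in all 48 h libraries. Gbi10G2885 stood at 18.8, 8.93 and 49.0 FPKM at 36 h, against 115, 125 and 90.5 FPKM at 24 h (log2 difference -2.36, SE 0.65, adjusted p = 0.0431). Replicate 3 was the high library at 36 h, and the call was lost without any 1 of the 6 libraries other than 36 h replicate 3 (adjusted p = 0.109 and 0.196 without 36 h replicates 1 and 2, and 0.104, 0.116 and 0.0987 without 24 h replicates 1, 2 and 3). Gbi01G0448 stood at 8.44, 9.23 and 16.6 FPKM at 36 h, against 46.4, 38.4 and 40.3 FPKM at 24 h (log2 difference -1.83, SE 0.24, adjusted p = 0.000795). It fell at each later time, having stood at 109 ± 8.90 FPKM at 12 h and reaching 1.72 ± 0.251 FPKM at 48 h (SD, n = 3).

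The 50 genes that fell and were highest at 24 h had a median of 4.51 FPKM (12 h), 12.6 FPKM (24 h), 3.82 FPKM (36 h) and 2.18 FPKM (48 h). They included the other 6 of the 10 largest falls. Gbi11G3287 stood at 16.6, 13.1 and 35.8 FPKM at 36 h, against 149, 143 and 188 FPKM at 24 h (log2 difference -2.94, SE 0.37, adjusted p = 0.000603). Every 24 h value was above its mean of 39.8 ± 13.9 FPKM at 12 h (SD, n = 3). Gbi10G2579 stood at 2.75, 1.99 and 7.56 FPKM at 36 h, against 37.8, 25.9 and 36.7 FPKM at 24 h (log2 difference -2.89, SE 0.31, adjusted p = 0.000251), and had been under 1 FPKM in every library at 0 h and 12 h. Gbi05G0662 stood at 3.09, 2.79 and 4.73 FPKM at 36 h, against 26.8, 34.6 and 31.6 FPKM at 24 h (log2 difference -2.84, SE 0.37, adjusted p = 0.000739). At 48 h its libraries stood at 15.6, 21.6 and 6.86 FPKM, all above those of 36 h. Gbi11G1242 stood at 2.77, 1.86 and 2.65 FPKM at 36 h, against 15.3, 10.2 and 12.6 FPKM at 24 h (log2 difference -1.99, SE 0.18, adjusted p = 5.21e-05). Gbi12G1576 averaged 31.5 ± 7.29 FPKM at 36 h and 112 ± 14.5 FPKM at 24 h (SD, n = 3 each; log2 difference -1.81, SE 0.29, adjusted p = 0.00244). These 5 kept their calls without any 1 of the 6 libraries. Gbi08G2228 stood at 12.9, 11.7 and 41.1 FPKM at 36 h, against 60.6, 75.4 and 74.2 FPKM at 24 h (log2 difference -1.86, SE 0.45, adjusted p = 0.0242). Replicate 3 was again the high library at 36 h, and the call was lost without any 1 of the 6 libraries other than 36 h replicate 3 (adjusted p = 0.0911 and 0.122 without 36 h replicates 1 and 2, and 0.0506, 0.0703 and 0.0859 without 24 h replicates 1, 2 and 3).

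The 5 most abundant genes that fell were Gbi13G4278, Gbi11G1850, Gbi13G4277, Gbi10G1219 and Gbi11G1955, and their log2 differences were between -1.28 and -1.02. Gbi13G4277 stood at 289, 264 and 337 FPKM at 36 h, against 752, 634 and 781 FPKM at 24 h (log2 difference -1.28, SE 0.20, adjusted p = 0.00219), and its call held without any 1 of the 6 libraries. Gbi13G4278, the next ID in number, stood at 401, 331 and 750.0 FPKM at 36 h, against 984, 1081 and 1005 FPKM at 24 h (log2 difference -1.14, SE 0.29, adjusted p = 0.0311). Gbi11G1850 stood at 375, 317 and 545 FPKM at 36 h, against 793, 1140.2 and 941 FPKM at 24 h (log2 difference -1.24, SE 0.33, adjusted p = 0.0373), after 4781 ± 369.8 FPKM at 12 h. In these last 2, 36 h replicate 3 was the highest of its time, and both lost their calls without any 1 of the other 5 libraries. The adjusted p was then 0.0709 to 0.156 for Gbi13G4278 and 0.0576 to 0.164 for Gbi11G1850. Gbi10G1219 averaged 175 ± 25.6 FPKM at 36 h and 369.5 ± 61.2 FPKM at 24 h (SD, n = 3 each; log2 difference -1.07, SE 0.28, adjusted p = 0.0327) and lost its call without each of the 6 libraries in turn (adjusted p = 0.0511 to 0.139). Gbi11G1955 averaged 153 ± 13.5 FPKM at 36 h and 311 ± 28.0 FPKM at 24 h (SD, n = 3 each; log2 difference -1.02, SE 0.14, adjusted p = 0.0011). Its libraries agreed closely, and its log2 difference slipped under 1 in size when 36 h replicate 2 (-0.95), 24 h replicate 1 (-0.98) or 24 h replicate 3 (-0.99) was dropped, at adjusted p of at most 0.0089.

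The highest genes of both times were not called. Gbi03G0170, the highest at 36 h, stood at 5874, 5709 and 4568 FPKM at 36 h, against 3191, 3752 and 3812 FPKM at 24 h. Its values did not overlap, but the log2 difference of 0.58 (SE 0.30) did not pass (adjusted p = 0.306); after quantile normalization it was 1.12 and passed (adjusted p = 0.0167, with 0.0167 to 0.562 over all alternatives). Gbi10G1092, the highest at 24 h, stood at 1711, 1649 and 3575 FPKM at 36 h, against 4338, 5140.0 and 5631 FPKM at 24 h (log2 difference -1.21, SE 0.46, adjusted p = 0.145). Gbi04G0594 stood at 946, 1140.4 and 2527 FPKM at 36 h, against 4238, 5143 and 4816 FPKM at 24 h (log2 difference -1.75, SE 0.54, adjusted p = 0.0697). Replicate 3 was the high 36 h library in both. Without it the log2 differences were -1.58 and -2.18 and both passed (adjusted p = 0.0481 and 0.0224, with 0.00342 to 0.384 and 0.000997 to 0.221 over all alternatives). Gbi08G0896 averaged 3021 ± 729.6 FPKM at 36 h and 4773 ± 583 FPKM at 24 h (log2 difference -0.68, SE 0.36, adjusted p = 0.327). Gbi09G2338 averaged 1549 ± 474 FPKM at 36 h and 2872 ± 542 FPKM at 24 h (log2 difference -0.92, SE 0.78, adjusted p = 0.58). Gbi09G3040 averaged 4380.2 ± 1229 FPKM at 36 h and 3987 ± 313 FPKM at 24 h (log2 difference 0.10, SE 0.42, adjusted p = 0.938), and its groups overlapped (SD, n = 3 each for these 3 genes).

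Some called genes had consecutive ID numbers. The files give no positions, so only the numbers in the IDs were used. Scaffold IDs were left out of this count. Of the 629 other genes that rose, 67 (10.7%) had a neighbour by number that also rose. That held for 3.22% of the 22723 detected genes without a scaffold ID. Of 145 that fell, 10 (6.90%) had a neighbour that fell, beside 0.713%. Outside the scaffold IDs, the longest run was Gbi09G1214, Gbi09G1215 and Gbi09G1216. Gbi09G1214 stood at 3.25, 3.37 and 9.19 FPKM at 36 h, against 0.327, 1.2 and 0.147 FPKM at 24 h (log2 difference 1.94, SE 0.31, adjusted p = 0.00257), while Gbi09G1215 and Gbi09G1216 rose by 1.16 and 1.06. Gbi10G3083, next to Gbi10G3084, had the same narrow course: 3.87, 3.30 and 7.37 FPKM at 36 h, against 0.463, 1.48 and 0.398 FPKM at 24 h, and 0 in every library at 0 h, 12 h and 48 h. Gbi01G1112, next to Gbi01G1113, was likewise high in 36 h replicate 3, at 3.11, 4.55 and 49.1 FPKM at 36 h, and was listed at 0 in all 24 h libraries. Near-identical neighbours could share reads, which cannot be checked without sequences, so the separate levels of such pairs are uncertain. By ID prefix, genes that rose were between 1.99% (Gbi02) and 3.88% (Gbi05) of detected genes, and genes that fell between 0.390% (Gbi04) and 0.885% (Gbi10), leaving out scaffold IDs.

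The light-dark table gives the levels of these genes at 24 h with and without light. It was made separately and holds the same 24 h light libraries, so its values are set beside those above without a count of overlap. Some genes that rose by 36 h were already higher under light at 24 h. Gbi07G2137 stood at 49.9, 139 and 54.4 FPKM in light, against 5.0, 20.4 and 8.93 FPKM in the dark. Gbi05G2233 stood at 123, 164 and 84.4 FPKM in light, against 24.7, 46.4 and 21.5 FPKM in the dark. Gbi05G1787 stood at 0.553, 1.2 and 0.613 FPKM in light and was listed at 0 in all dark libraries, as was Gbi13G1003, which stood at 0.0993, 0.262 and 0.206 FPKM in light. In these 4 the groups did not overlap, but Gbi05G1787 and Gbi13G1003 were low in both, and depth is unknown. The groups also did not overlap in Gbi11G2016 and Gbi10G1477, and they overlapped in the rest of the largest and most abundant rises. No share over all genes is given for light against dark, so no excess is read from these genes. Gbi01G2273 overlapped between light (2.14, 0.50 and 2.07 FPKM) and dark (1.41, 4.37 and 2.08 FPKM), and so did Gbi03G0497 (43.3, 51.4 and 56.4 FPKM in light, against 55.0, 91.9 and 41.6 FPKM in the dark). Among genes that fell, Gbi10G2579 was higher in light (54.5, 38.3 and 53.0 FPKM, against 13.7, 17.4 and 23.8 FPKM in the dark). Gbi12G1576 was lower in light (139.6, 118 and 151 FPKM, against 232, 201 and 206 FPKM in the dark), as was Gbi12G3305 (14.6, 66.1 and 56.3 FPKM, against 82.6, 137 and 81.2 FPKM). Light and dark also did not overlap in Gbi11G1242 and Gbi10G1219, higher in light, and in Gbi08G2228 and Gbi11G1955, lower in light. They overlapped in the rest of the largest and most abundant falls. No dark sample at 36 h was analysed here, so time and length of light cannot be told apart in the comparison of 36 h with 24 h.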

How the data were processed

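RNA of cotyledons was sequenced in 18 samples in 6 groups of 3, as paired-end reads, per the labels' protocols. The submitters' processing notes list HISAT2 2.0.4, Trimmomatic 0.36 and HTSeq 0.6.0 without settings. For build, annotation and strandedness, the setting is not given in the sources used here. Values are FPKM, made and deposited by the authors in 2 tables, of 15 and 6 libraries. Depth cannot be read from the FPKM of the time-course table, so no counting interval is given.

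The 24 h columns of the time-course table do not name light or dark and were taken as the light libraries. Across 16800 genes their replicate deviations correlated at 0.830 to 0.859 with the same-numbered light columns of the other table, whereas the dark columns gave -0.106 to 0.101.

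Tests used limma 3.58.1 in R 4.3.3 on log2(FPKM + 1), with a group-means model of all 15 libraries, a trend of variance on mean level, and p-values adjusted by Benjamini-Hochberg over the 26086 genes at 1 FPKM or more in at least 3 libraries. Calls needed an adjusted p under 0.05 and a log2 difference of at least 1 in size, two-sided. This scale understates changes of low genes. Library-level measures used exact permutation tests (scipy 1.17.1). The fit was also run on simulated data. These had the same spread at all times for each gene and no outlying library, so they say nothing on either feature. Alternatives covered pseudocount, filter, scaling, weights, block and libraries left out.

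Named genes were, per direction, the 10 called genes with the largest log2 difference (values not overlapping, higher mean at least 10 FPKM) and the 5 called genes with the highest mean over the 6 libraries, with the 5 highest genes at each time. Other genes are named as chosen after their values were seen. These include runs of consecutive IDs and the genes set beside them. The genes, rules and comparison were chosen with earlier results of these data known. Gene lists by name were not used, since the files hold no names.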

Additional observations from a re-analysis of the deposited data

How the results depend on the processing

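Depth is unknown, which limits statements on genes at low FPKM. Apart from leaving out a library, 3 settings moved the counts of calls (all, higher, lower at 36 h against 24 h) by over 1.5 times. They were a fit of 24 h and 36 h alone (0, 0 and 0, with 4483 genes at an unadjusted p under 0.05), array weights (1363, 989 and 374) and no fold minimum (1581, 1181 and 400). The last lets in smaller changes by construction. In fits of 24 h and 36 h alone, calls lower numbered 344 with array weights and 254 without 36 h replicate 3. The cause was not tested. Leaving out each library gave 447 to 1305 calls, 367 to 983 higher and 80 to 322 lower. The share of genes called higher that were also higher at 48 h against 12 h was 92.0% both unfiltered and with a minimum of 5 FPKM. It was 93.5% at pseudocount 0.1, 91.2% when the fold minimum was removed, 91.6% without the 0 h libraries and 82.3% with array weights, and 82.3% to 92.1% when each library was left out. The same share for genes called lower was 65.0% to 80.1% when each library was left out. Calls higher made up 81.1% of calls as deposited, 72.2% after quantile normalization and 72.6% with array weights. In fits of 24 h and 36 h alone they made up 69.4% with array weights and 64.9% without 36 h replicate 3.

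Of the 30 called genes named by the rule, 17 kept their calls without each of the 6 libraries and 15 under every alternative other than fits of 24 h and 36 h alone. In the fit of those 6 libraries alone all 30 missed, at adjusted p of 0.052 to 0.17. Gbi09G3040, not called, reversed to -0.22 with array weights and to -0.21 with weights in the fit of 24 h and 36 h alone, and ranged from -0.094 (without 36 h replicate 2) to 0.33 when each library was left out. Same-numbered 36 h and 24 h libraries did not deviate together (r = 0.127, -0.369 and 0.0871 across genes for replicates 1, 2 and 3), so the numbers are not taken as pairs. With the replicate number as a block, 760 genes were called, 629 higher and 131 lower. The median log2 difference of all genes tested stayed between -0.05 and 0.03 under every setting. The position of the 36 h libraries was 0.304 to 0.482 after quantile normalization, against 0.198 to 0.255 for the 24 h libraries.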

Other observations

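The 150 detected genes that in 36 h replicate 3 exceeded both other 36 h libraries by 2 log2 units or more had a median of 31.4 FPKM there, against 3.01 and 3.70 FPKM in 36 h replicates 1 and 2. Of these, 22 were called higher at 36 h, 0 lower, and 128 were not called, where 2.79% of all detected genes were called higher and 0.648% lower. The genes were picked for a high value in a 36 h library, so nothing is read from that count. Their median was 1.95, 2.00 and 6.48 FPKM in 12 h replicates 1, 2 and 3, and 144 of them stood at 1 FPKM or more in 12 h replicate 3, against 100 and 91 in replicates 1 and 2. At 0 h it was 1.29, 3.65 and 0.428 FPKM in replicates 1, 2 and 3, and at 48 h 0.870 to 1.21 FPKM. Gbi02G0926 stood at 28.7, 45.5 and 559.7 FPKM at 36 h, against 15.2, 1.78 and 11.4 FPKM at 24 h, and was not called (adjusted p = 0.0655). Gbi10G1103 stood at 46.0, 65.4 and 482 FPKM at 36 h, against 501, 461 and 529 FPKM at 24 h, so that replicate 3 alone kept the 24 h level.

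Gbi09G3040, among the highest genes of the time course at 4204, 3628 and 4129.7 FPKM in the 24 h light libraries, was listed at 0 in all 6 libraries of the light-dark table, which holds the same 24 h light libraries.

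Of the genes that fell, 3 were highest at 48 h. The most abundant of these there, Gbi09G2959, stood at 4.91, 3.70 and 5.64 FPKM at 36 h, against 13.5, 9.66 and 20.7 FPKM at 24 h (log2 difference -1.39, SE 0.22, adjusted p = 0.00228), and reached 291 ± 23.6 FPKM at 48 h (SD, n = 3). Of the genes that rose, 8 were highest at 0 h. Gbi05G1688 stood at 2.91, 4.31 and 4.04 FPKM at 36 h, against 1.10, 0.638 and 1.29 FPKM at 24 h (log2 difference 1.24, SE 0.32, adjusted p = 0.0353), after 617, 243 and 301 FPKM at 0 h.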
